A study of Mus musculus with 6 samples.

Results

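Chemokines are small secreted proteins that guide the migration of leukocytes, and their receptors are G protein-coupled receptors carried by the cells that respond. The genes of this system were taken from the prostate expression table by symbol, as every row named as a CC, CXC, CX3C or XC ligand, a receptor of these classes, Ccrl2 or an atypical chemokine receptor (Ackr). The rule found 67 of 34745 rows, which carried 62 symbols: 44 rows of ligands and 23 of receptors. Ccl21a, Ccl21c and Ccl27a stood in the table more than once, and 6 rows lay on unplaced scaffolds. The rule used no expression value.

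The tissue was prostate from C57BL/6 mice. The T + E2 group consisted of 3 male mice that carried slow-release pellets of testosterone (T) and oestradiol (E2) under the skin for 12 weeks, 1 pellet at a time with monthly replacement by the study's methods, which is used to model an enlarged, obstructing prostate. The CON group consisted of 3 male mice that received only the skin incision and its closure (by staples in the labels, by sutures in the methods), so that they carried no empty pellet. All 6 mice were of one strain with no transgene. Both hormones were given together, and their effects cannot be told apart here. Each library was made from total RNA of whole prostate tissue, so a lower value can mean fewer cells of a type or less RNA per cell, which cannot be told apart.

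Counts assigned to genes ranged from 14819273 to 16026544 in CON mice and from 14816146 to 16555549 in the T + E2 group. By these totals 3 counts corresponded to 0.181 to 0.202 CPM, which are counts scaled to a common library total. The other CPM below also carry TMM scaling between libraries, by which 3 counts were 0.208 CPM in T + E2 replicate 1. Transcripts typical of prostate epithelium were present in every mouse. Pbsn, the androgen-dependent secretory protein probasin, lay between 12400 and 16600 CPM in CON mice and between 1260 and 1750 CPM in the T + E2 group. Replicate 2 of each group stood apart, because 4 seminal vesicle genes summed to 9890 CPM in CON replicate 2 and to 600 CPM in T + E2 replicate 2, against at most 3.71 CPM in the other 4 mice. Adipocyte markers were also highest in CON replicate 2, at 269 CPM against 37.2 to 76.4 CPM. Red cell and macrophage markers were highest in T + E2 replicate 2, with sums of 420 and 596 CPM against at most 136 and 406 CPM in any other mouse. The calls that did not hold without both replicate-2 libraries are named further on.

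Chemokines are grouped by the spacing of their first cysteines. In CC chemokines the first cysteines are adjacent, in CXC chemokines a single residue separates them, and in CX3C chemokines 3 residues do. Inflammatory chemokines are induced by cytokines and draw neutrophils, monocytes or T cells into damaged tissue, whereas homeostatic chemokines are made steadily and place lymphocytes, plasma cells and resident macrophages. Mucosal epithelia, including those of glands, secrete chemokines of their own, some of which also kill bacteria. Atypical receptors bind chemokines without coupling to G proteins, and they take up or redistribute the ligand.

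The 8 ligands whose level passed the test show this class difference in their coding sequences. The stretches below are 36 bases from the GENCODE M21 transcripts (GRCm38), read 5′ to 3′, in which capitals mark the first pair of cysteine codons with the class spacing after codon 20. In the 4 CC ligands the codons are adjacent, and in the 4 CXC ligands 1 codon lies between them.
Ccl28 (chr13:119645880-119645915, plus strand, exonic): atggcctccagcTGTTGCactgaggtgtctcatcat
Ccl6 (chr11:83589368-83589403, minus strand, exonic): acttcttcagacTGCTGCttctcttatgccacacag
Ccl9 (chr11:83575908-83575943, minus strand, exonic): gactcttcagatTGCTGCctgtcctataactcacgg
Ccl11 (chr11:82061684-82061719, plus strand, exonic): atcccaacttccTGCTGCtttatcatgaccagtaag
Cxcl12 (chr6:117171496-117171531, plus strand, exonic): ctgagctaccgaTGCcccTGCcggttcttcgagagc
Cxcl13 (chr5:95958652-95958687, plus strand, exonic): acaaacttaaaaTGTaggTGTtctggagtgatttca
Cxcl15 (chr5:90795216-90795251, plus strand, exonic): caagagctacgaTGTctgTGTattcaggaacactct
Cxcl17 (chr7:25402240-25402881, minus strand, exonic on both sides of an intron): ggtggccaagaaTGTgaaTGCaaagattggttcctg
The first marked codon was codon 30 in Ccl28, 50 in Ccl6, 57 in Ccl9, 32 in Ccl11, 30 in Cxcl12, 32 in Cxcl13, 30 in Cxcl15 and 50 in Cxcl17. Ccl6 and Ccl9, neighbours in the genome, share a similar stretch in front of and after the pair.

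Of the 67 rows, 35 passed the filter on low counts and were tested. Of these, 6 rose in the T + E2 group (edgeR quasi-likelihood test, Benjamini-Hochberg adjusted over 15580 genes), which was 17.1% of the tested rows, against 10.4% of all tested genes. The genes that rose were Ccl28, Cxcl15, Cxcl17, Ccl9, Ccl6 and Cxcl13, and all of them are ligands. Ccl11, Cxcl12 and Cx3cr1 fell, which was 8.57% of the tested rows against 9.25% of all tested genes. By the additional condition of an absolute log2 fold change over 1, 7 of 35 were DEGs, against 7.64% of all tested genes. Of these DEGs 6 rose (17.1% against 4.27% of all tested genes) and 1 fell (2.86% against 3.38%). The values of both groups did not overlap in 15 of 35, or 42.9%, which lies near the 40.7% of all tested genes. The median log2 fold change was 0.14 over the 35 tested rows and -0.002 over all tested genes. A gene could pass the filter through the mice of a single group.

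**Figure D1:**
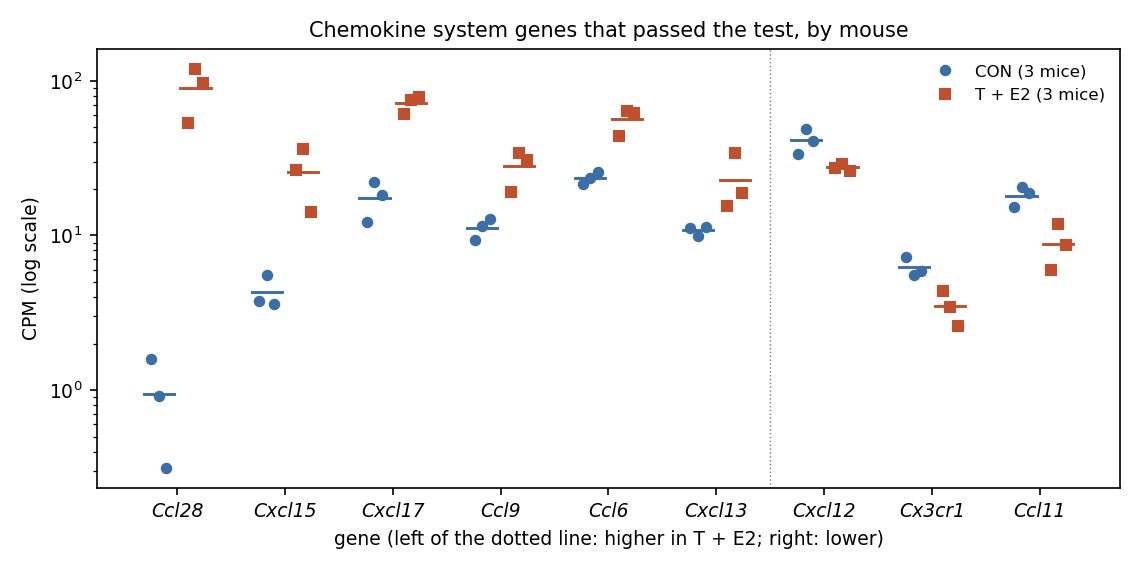
CPM on a log scale for the 9 genes that passed the test, with 1 point per mouse, circles for CON and squares for T + E2, and a line at each group mean. The T + E2 points lie above all CON points for the 6 genes on the left and below them for the 3 genes on the right, and the widest separation is that of Ccl28.

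Ccl28, a chemokine of mucosal epithelia that attracts IgA-producing cells through Ccr10 and has antimicrobial activity, showed the largest change of the family. It was almost silent in the CON group, at 1.59, 0.920 and 0.314 CPM in the 3 mice, and reached 53.1, 119.0 and 96.8 CPM in the T + E2 group. Every treated mouse was far above every control. The means were 0.941 ± 0.638 and 89.5 ± 33.4 CPM (SD, n = 3 each), a ratio of 95.1. The log2 fold change was 6.57 (standard error 0.47, 95% confidence interval 5.49 to 7.66, edgeR adjusted p = 8.92e-05). Leaving out each mouse in turn gave log2 fold changes of 6.15 to 7.17, with the highest value without CON replicate 1. In raw counts the controls held 24, 14 and 5, so the CON level rests on few reads. The gene lies on chromosome 13 from 119623819 to 119654354 on the plus strand.

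The promoter of Ccl28 is shown because no other member changed as much. The RefSeq window (GRCm38.p6, chr13:119623569-119623868, plus strand) runs from 250 bases before the transcription start to 50 after it, and capitals mark a match to the AP-1 letters TGANTCA.
Ccl28 promoter: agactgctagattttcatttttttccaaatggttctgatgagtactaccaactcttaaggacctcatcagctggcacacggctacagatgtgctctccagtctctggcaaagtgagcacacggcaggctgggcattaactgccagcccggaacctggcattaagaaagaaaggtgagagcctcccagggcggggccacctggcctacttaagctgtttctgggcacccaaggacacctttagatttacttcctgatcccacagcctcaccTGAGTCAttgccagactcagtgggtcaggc
The match began at base 21 after the start. These letters occurred on either strand in 2 of the 7 promoters available for the 9 genes that passed, those of Ccl28 and Ccl9, and in 7.81% of the 32851 promoter windows of the same length.

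The receptors of Ccl28 are Ccr10 and Ccr3. Ccr10, found on IgA plasma cells and some T cells, was too low to test, with 3, 1 and 3 counts in CON mice, compared with 6, 3 and 4 in the T + E2 group. Ccr3, the eosinophil receptor that Ccl28 shares with Ccl11, had 4, 8 and 6 counts in the CON group against 3, 0 and 0. The groups overlapped for Ccr10. Ccr3 counts were lower in all treated mice, but the lowest control had 4 counts and the highest treated mouse 3. Ccr3 did not pass without the filter on low counts (edgeR adjusted p = 0.158) or in DESeq2 (adjusted p = 0.272). None of 3 tested plasma cell markers passed. Mzb1, a chaperone of antibody-secreting cells, was at 1.85, 0.394 and 0.817 CPM in CON mice and at 3.18, 2.98 and 2.27 CPM in the T + E2 group, without overlap (log2 fold change 1.46, edgeR adjusted p = 0.0675). Jchain, the joining chain of IgA, had a log2 fold change of 1.14 (edgeR adjusted p = 0.16) with overlap, and Derl3, a protein quality control factor of the endoplasmic reticulum, had -0.10 (edgeR adjusted p = 0.783). The summed level of the 4 listed markers, of which Derl3 held the most in 5 of 6 mice, was 210 to 261 CPM in CON mice, compared with 246 to 299 CPM in the T + E2 group. The part of plasma cells in the rise of Ccl28 was not tested.

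Cxcl17, an antimicrobial chemokine of mucosal tissues, also rose, and per gene length (FPKM, given further on) it was the most abundant chemokine transcript of the treated prostate. It was at 12.3, 22.2 and 18.2 CPM in CON mice and at 61.2, 75.5 and 79.0 CPM in the T + E2 group. The lowest treated mouse was well above the highest control. This was 2.03 on the log2 scale (standard error 0.21, 95% confidence interval 1.55 to 2.51, edgeR adjusted p = 0.000536). The gene lies on chromosome 7 from 25400053 to 25412886 on the minus strand.

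Cxcl15, known as lungkine and first described in the lung, where epithelial cells secrete it and neutrophils respond to it, also rose. It was at 3.77, 5.59 and 3.58 CPM in CON mice and at 26.7, 36.5 and 14.1 CPM in the T + E2 group. The groups were apart, although the treated mice spanned a wide range. On the log2 scale the change was 2.58 (standard error 0.35, edgeR adjusted p = 0.0021). Neither of 2 tested neutrophil markers passed, Ly6g and Mpo had at most 3 counts in every mouse, and the summed level of the 5 listed markers was 2.07 to 3.09 CPM in CON mice, compared with 1.11 to 6.27 CPM in the T + E2 group. The part of neutrophils in the rise of Cxcl15 was not tested.

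The promoter of Cxcl15 (GRCm38.p6, chr5:90794284-90794583, plus strand) is shown because it holds the TATA letters TATAAA, in capitals, 27 bases before the transcription start.
Cxcl15 promoter: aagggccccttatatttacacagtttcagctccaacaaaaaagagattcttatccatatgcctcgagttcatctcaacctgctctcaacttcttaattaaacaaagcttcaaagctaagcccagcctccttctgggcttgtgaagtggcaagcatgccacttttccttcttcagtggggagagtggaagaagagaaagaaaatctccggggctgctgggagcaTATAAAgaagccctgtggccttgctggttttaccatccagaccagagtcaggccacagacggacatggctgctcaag
TATAAA occurred on either strand in 3 of the 7 promoters, those of Cxcl15, Cxcl13 and Ccl9, and in 13.6% of all promoter windows. The androgen receptor half-site letters AGAACA were in none of the 7 promoters and in 19.0% of all windows. TTCNNNGAA, bound by STAT factors, was also in none of the 7, against 8.3% of all windows. The full hormone receptor sites, searched as a half-site and its reverse complement with 3 bases between them, were in none of the 7, against 0.00913% of all windows for the androgen receptor (AGAACA) and 0.07% for the oestrogen receptor (GGTCA). GGGA and TTTCC with 1 base between them, bound by NF-kB, were in none of the 7 and in 0.411% of all windows. The oestrogen receptor half-site GGTCA alone, added after the full site had given no match, was in 5 of the 7 and in 40.5% of all windows. These windows hold only the bases next to the start, and a match or its absence is a description of letters.

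Ccl6 and Ccl9, ligands of Ccr1 that rodent macrophages and other myeloid cells make, rose together. Ccl6 was at 21.5, 23.7 and 25.8 CPM in CON mice and at 44.0, 63.7 and 62.1 CPM in the T + E2 group. Ccl9 was at 9.34, 11.5 and 12.8 CPM in CON mice and at 19.2, 34.2 and 30.6 CPM in the T + E2 group. In both genes T + E2 replicate 1 was the lowest treated mouse and was still above every control. The log2 fold change was 1.26 for Ccl6 (standard error 0.15, 95% confidence interval 0.90 to 1.61, edgeR adjusted p = 0.00129). It was 1.32 for Ccl9 (standard error 0.22, 95% confidence interval 0.80 to 1.83, edgeR adjusted p = 0.00536). The ratio of Ccl9 to Ccl6 in FPKM, which are fragments scaled to gene length and library total, was 0.343, 0.383 and 0.395 in CON mice, compared with 0.345, 0.423 and 0.388 in the T + E2 group, so the proportion of the pair lay in one range in both groups.

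The genes lie on the minus strand of chromosome 11, Ccl9 from 83572919 to 83578636 and Ccl6 from 83587882 to 83593087, with a gap of 9.2 kb. Their promoter windows (GRCm38.p6, chr11:83593038-83593337 for Ccl6 and chr11:83578587-83578886 for Ccl9) are shown because the genes changed together, and capitals mark the stretch that aligned between them.
Ccl6 promoter: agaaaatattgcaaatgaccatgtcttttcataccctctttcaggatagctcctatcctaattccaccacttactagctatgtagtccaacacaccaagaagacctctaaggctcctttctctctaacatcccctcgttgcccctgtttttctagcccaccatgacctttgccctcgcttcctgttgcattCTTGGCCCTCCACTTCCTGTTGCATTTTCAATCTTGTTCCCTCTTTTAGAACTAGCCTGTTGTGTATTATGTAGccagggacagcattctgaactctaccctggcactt
Ccl9 promoter: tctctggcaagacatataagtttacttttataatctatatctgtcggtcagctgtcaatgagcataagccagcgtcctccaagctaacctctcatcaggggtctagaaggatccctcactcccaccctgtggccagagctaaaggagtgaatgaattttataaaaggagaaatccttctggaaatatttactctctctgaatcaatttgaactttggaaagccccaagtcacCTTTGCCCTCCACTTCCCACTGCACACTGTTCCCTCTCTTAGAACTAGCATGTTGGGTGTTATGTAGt
The alignment had 74 columns, of which 59 were identical bases (79.7%). It covered bases 192 to 265 of the Ccl6 window and bases 233 to 299 of the Ccl9 window, counted from 1 at the 5′ end, so the shared stretch lies at a different distance from the annotated start in each gene.

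Some macrophage transcripts moved with this pair. Of 9 macrophage markers, 4 rose (Mrc1, C1qa, C1qb and Cd163) and 5 did not pass (Adgre1, Cd68, Csf1r, Lyz2 and Fcgr1, whose groups overlapped). The log2 fold changes of all 9 were above 0, none was at 0 in every mouse, and their summed level was 245 to 341 CPM in CON mice, compared with 389 to 596 CPM in the T + E2 group. Cd163, a scavenger receptor of resident macrophages, was at 28.9, 20.4 and 25.0 CPM in CON mice and at 44.1, 91.9 and 61.3 CPM in the T + E2 group, a log2 fold change of 1.41 (edgeR adjusted p = 0.00758). Of 6 general leukocyte markers Cd53 rose (log2 fold change 0.85, edgeR adjusted p = 0.0306) and 5 did not pass. Their sum was 204 to 214 CPM and 184 to 205 CPM, most of it from Lcp1 (log2 fold change -0.31, edgeR adjusted p = 0.0885), while Ptprc had a log2 fold change of 0.49 (edgeR adjusted p = 0.301). The part of macrophage number in the rise of Ccl6 and Ccl9 was not tested. Their common receptor Ccr1 was at 4.37, 2.43 and 2.45 CPM in CON mice and at 3.74, 5.85 and 3.54 CPM in the T + E2 group, and did not pass (log2 fold change 0.51, 95% confidence interval -0.23 to 1.24, edgeR adjusted p = 0.296).

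Cxcl13, which attracts B cells into follicles through Cxcr5, rose by less. It was at 11.2, 9.99 and 11.4 CPM in CON mice and at 15.4, 34.3 and 18.8 CPM in the T + E2 group. The controls were close together, and T + E2 replicate 2 was much higher than the other treated mice. The estimated log2 fold change was 1.08 (standard error 0.28, 95% confidence interval 0.43 to 1.72, edgeR adjusted p = 0.032). Without both replicate-2 mice, which hold seminal vesicle transcripts, the log2 fold change was 0.60 and did not pass (edgeR adjusted p = 0.0887). T + E2 replicate 2 also had the highest red cell and macrophage marker sums, as given above. The part of any of these tissues or cells in its Cxcl13 level was not tested. The call was kept in 7 of 14 alternative settings. Cxcr5 was below the filter, with 2, 1 and 1 counts in CON mice, compared with 4 counts in each T + E2 mouse. Of 3 tested B cell markers Cd79b rose, and the summed level of the 4 listed markers was 2.17 to 5.83 CPM in CON mice, compared with 6.67 to 10.2 CPM in the T + E2 group, and the part of B cells in the change of Cxcl13 was not tested.

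The 3 genes that fell had changes that were smaller than those of the leading genes that rose. Ccl11, the eosinophil chemokine eotaxin, which stromal cells make, was at 15.2, 20.5 and 18.7 CPM in CON mice and at 5.95, 11.8 and 8.74 CPM in the T + E2 group. The highest treated mouse was below the lowest control. The log2 fold change was -1.03 (standard error 0.24, 95% confidence interval -1.59 to -0.48, edgeR adjusted p = 0.0209), which makes Ccl11 the only DEG among the genes that fell. The gene lies on chromosome 11 from 82057823 to 82062955 on the plus strand. Its main receptor Ccr3 had at most 8 counts in any mouse, as given above.

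Cxcl12, the stromal ligand of Cxcr4, was at 33.7, 48.8 and 41.1 CPM in CON mice and at 27.3, 29.2 and 26.3 CPM in the T + E2 group. The groups did not overlap, and the treated mice lay within a narrow range. On the log2 scale the change was -0.58 (standard error 0.14, edgeR adjusted p = 0.0236). Cxcr4 was at 3.44, 3.61 and 2.64 CPM in CON mice and at 1.94, 3.35 and 4.27 CPM in the T + E2 group, and its log2 fold change was -0.02 (95% confidence interval -0.73 to 0.70, edgeR adjusted p = 0.973). Ackr3, the atypical receptor that takes up Cxcl12, was at 60.4, 98.7 and 106.0 CPM in CON mice and at 51.2, 39.9 and 86.6 CPM in the T + E2 group, and did not pass (log2 fold change -0.58, edgeR adjusted p = 0.219). Of the stromal markers, 0 of 4 fibroblast genes passed (edgeR; 987 to 1330 CPM against 1160 to 1550 CPM in sum), and 2 of 4 smooth muscle genes, Acta2 and Des, fell (3250 to 4010 CPM against 2800 to 3080 CPM in sum). The part of smooth muscle content in the fall of Cxcl12 and Ccl11 was not tested.

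Cx3cr1, the receptor of fractalkine on monocytes and some resident macrophages, was the only receptor of 13 tested that passed. Of all tested genes 19.6% passed. Cx3cr1 is described here by its own values. It was at 7.22, 5.59 and 5.85 CPM in CON mice and at 4.36, 3.47 and 2.60 CPM in the T + E2 group. All treated mice were below all controls, while 4 of the 9 macrophage markers given above rose. The estimated log2 fold change was -0.84 (standard error 0.24, 95% confidence interval -1.39 to -0.29, edgeR adjusted p = 0.0433). Cx3cl1, its ligand and a transmembrane chemokine of epithelium and endothelium, was at 78.4, 95.7 and 85.7 CPM in CON mice and at 68.3, 69.8 and 77.4 CPM in the T + E2 group. The groups did not overlap for Cx3cl1 either, but the difference did not pass (log2 fold change -0.27, edgeR adjusted p = 0.113). An antisense transcript, Gm33858, overlaps 78 of the 4505 exonic bases of Cx3cr1.

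The calls in the falling direction were less stable than those of the leading genes that rose. Ccl28, Cxcl17, Ccl6 and Cxcl15 passed in all 14 alternative settings, and Ccl9 in 13. Cxcl13, which also rose, passed in only 7. Ccl11 passed in 11, Cxcl12 in 8 and Cx3cr1 in 7. With edgeR 0 of 35 genes fell without CON replicate 2 and 0 without CON replicate 3, against 5 and 6 at an unadjusted p under 0.05. Without T + E2 replicate 2, 1 fell (Ccl11), and without T + E2 replicate 3, 1 fell (Ackr3, which did not pass with all mice). Calls over all genes dropped too. With all mice 1441 of 15580 tested genes fell, compared with 928 of 15890 without CON replicate 2 and 834 of 15864 without CON replicate 3. Without both replicate-2 mice it was 532 of 15646. DESeq2, run on all 6 mice, called 3 of the 35 lower. Without both replicate-2 mice 1 gene, Ccl11, fell, and 4 rose, while Ccl9, Cxcl13, Cxcl12 and Cx3cr1 did not pass.

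**Figure D2:**
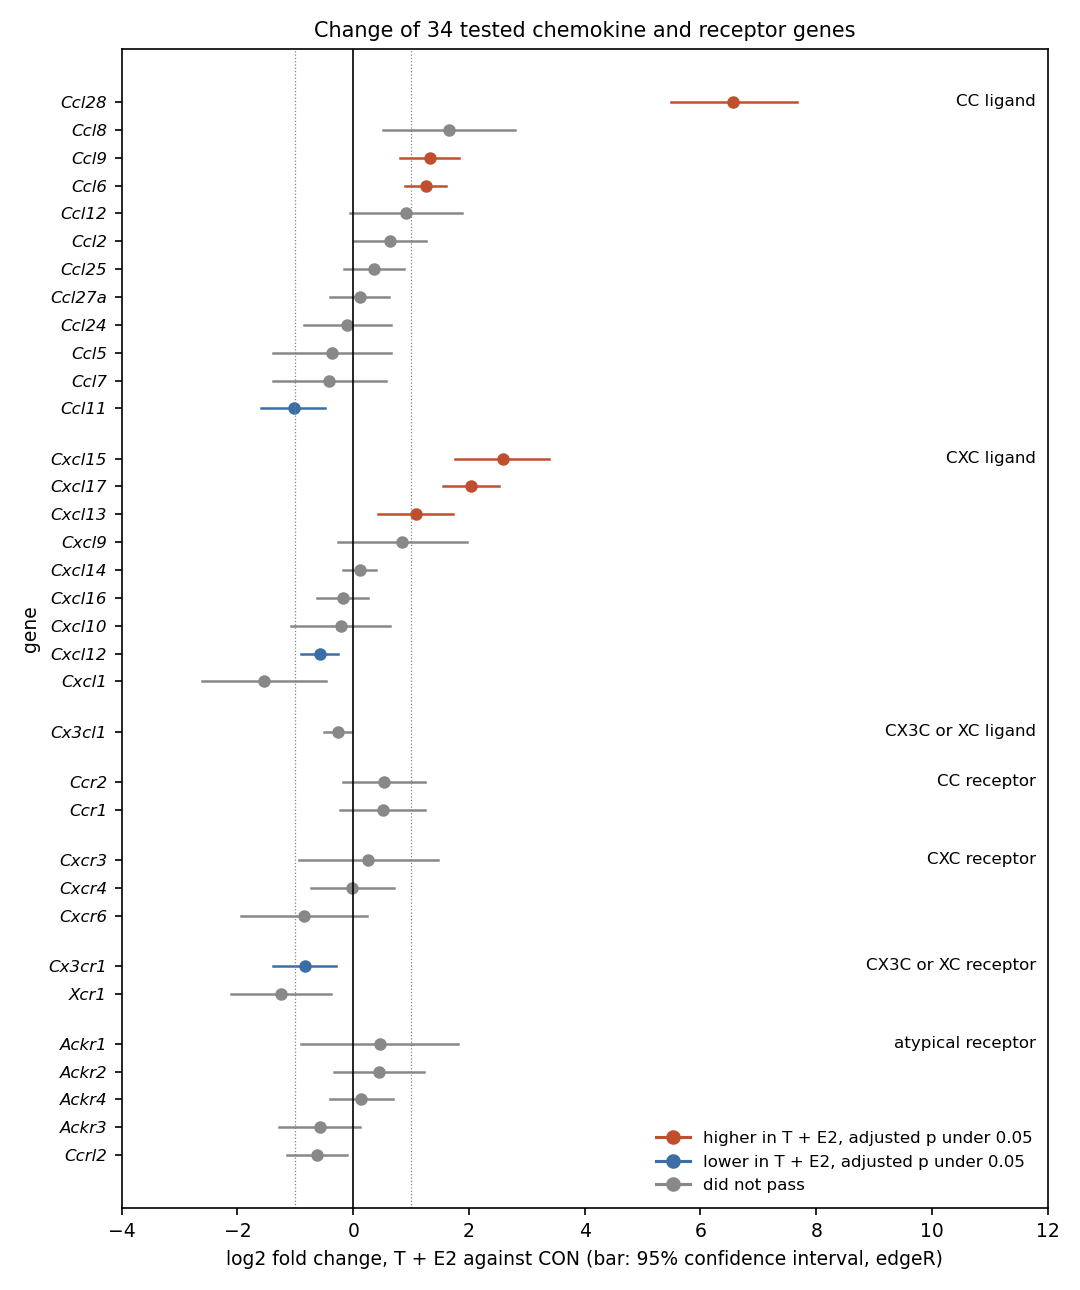
Log2 fold change of T + E2 against CON for 34 of the 35 tested genes, grouped by role, with 95% confidence intervals from edgeR, dotted lines at -1 and 1, red for genes that rose, blue for genes that fell and grey for those that did not pass. The intervals of the receptors mostly cross 0, and Ccl28 at 6.57 stands apart from all other genes.

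Several ligands came close to the threshold. Ccl8, a monocyte chemokine made by macrophages, was at 4.37, 1.91 and 1.76 CPM in CON mice and at 5.05, 14.4 and 5.94 CPM in the T + E2 group, and its log2 fold change was 1.66 (standard error 0.50, edgeR adjusted p = 0.0505). T + E2 replicate 2 was far above the other treated mice, and without it the log2 fold change was 1.04 (edgeR adjusted p = 0.161), and without both replicate-2 mice 0.84 (edgeR adjusted p = 0.312). It passed in 4 of 14 alternatives, among them DESeq2 (adjusted p = 0.00269). Cxcl1, a neutrophil chemokine, was at 0.993, 0.986 and 1.13 CPM in CON mice and at 0.415, 0.122 and 0.534 CPM in the T + E2 group. Its log2 fold change was -1.54 (standard error 0.47, edgeR adjusted p = 0.0528). In both genes the groups did not overlap, but the difference did not hold against the multiple testing correction.

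The related neutrophil chemokines Cxcl2, Cxcl3 and Cxcl5 were too low for the main test. Cxcl2 had 13, 4 and 6 counts in CON mice, compared with 0 in every T + E2 mouse. The CON mean of Cxcl2, 0.5 CPM, was 2.58 times the T + E2 level of 3 counts per library (1.65 times without CON replicate 1, the highest control). The mean carries TMM scaling and the level of 3 counts does not, so this bound on the fall is approximate. Cxcl2 passed without the filter on low counts (edgeR adjusted p = 0.0209) and in DESeq2 (adjusted p = 0.0115). Cxcl3 had 3, 0 and 2 counts in CON mice, compared with 0 in the T + E2 group, and Cxcl5 had 18, 0 and 1 against 0, 1 and 0, so a single control mouse held most of the Cxcl5 counts. Ccl20, a ligand of Ccr6 made by mucosal epithelium, had 4, 3 and 1 counts against 0 in every treated mouse and did not pass without the filter (edgeR adjusted p = 0.11). The transcripts of Cxcl2 and Cxcl3 share 561 bases at about 90% identity, so reads could be split between them.

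The other tested ligands did not pass either. Ccl2, the main monocyte chemokine, was at 0.927, 0.986 and 0.817 CPM in CON mice and at 1.31, 1.34 and 1.60 CPM in the T + E2 group, without overlap (log2 fold change 0.64, edgeR adjusted p = 0.137). Ccl5, a T cell chemokine, was at 6.95, 3.88 and 2.39 CPM against 3.53, 4.75 and 1.94 CPM (log2 fold change -0.37, 95% confidence interval -1.39 to 0.65). The interferon-induced ligands of Cxcr3 showed no shared direction, with log2 fold changes of 0.85 for Cxcl9 (edgeR adjusted p = 0.25) and -0.22 for Cxcl10 (edgeR adjusted p = 0.719), and at most 3 counts of Cxcl11 in any mouse. Ccl7 (-0.42), Ccl12 (0.92), Ccl24 (-0.10), Ccl25 (0.36), Ccl27a (0.11), Cxcl16 (-0.18) and Cxcl14 (0.11) also did not pass (log2 fold changes, edgeR adjusted p from 0.164 to 0.866). The interval of Cxcl14, an abundant epithelial and stromal chemokine, ran from -0.18 to 0.40. Ccl27a shares up to 766 bases at 98.6% identity with other gene copies, so its counts are uncertain.

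Among the receptors, 13 of 23 were tested and 1 fell, where 9.25% of all tested genes fell. The CC receptors of monocytes and macrophages, Ccr1 and Ccr2, had log2 fold changes of 0.51 and 0.53, both above 0 and neither past the threshold (edgeR adjusted p = 0.296 and 0.263). Ccr2, the receptor of Ccl2, was at 9.47, 7.16 and 5.60 CPM in CON mice and at 10.4, 15 and 6.67 CPM in the T + E2 group. The groups overlapped for both of these receptors. The T and natural killer cell receptors Cxcr3 and Cxcr6 had log2 fold changes of 0.26 and -0.85 with intervals that crossed 0. T cell markers passed in 0 of 6 tested genes (edgeR), with a summed level of 6.35 to 15.5 CPM in CON mice, compared with 8.34 to 11.9 CPM in the T + E2 group.

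Xcr1, which marks cross-presenting dendritic cells, missed the threshold. It was at 0.861, 1.05 and 0.754 CPM in CON mice and at 0.277, 0.487 and 0.334 CPM in the T + E2 group, and its log2 fold change was -1.25 (standard error 0.37, edgeR adjusted p = 0.0505). The groups did not overlap. Dendritic cell markers passed in 0 of 5 genes (edgeR), with 12.4 to 14.4 CPM in CON mice, compared with 8.51 to 13.5 CPM in the T + E2 group in sum. Its ligand Xcl1 had 5 to 8 counts in every mouse.

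None of the 5 atypical receptors passed, where 19.6% of all tested genes did. Ccrl2, which presents the chemoattractant chemerin, was at 5.70, 5.52 and 4.40 CPM in CON mice and at 3.53, 3.96 and 2.60 CPM in the T + E2 group, without overlap (log2 fold change -0.63, edgeR adjusted p = 0.0923). The log2 fold changes were 0.46 for Ackr1, which venules and red cells carry, 0.45 for Ackr2, a scavenger of inflammatory CC chemokines on lymphatic endothelium, and 0.14 for Ackr4, which takes up Ccl19, Ccl21 and Ccl25. Of 4 lymphatic markers Lyve1 and Pdpn rose and Prox1 and Flt4 did not pass (log2 fold changes 0.24 and -0.15, edgeR adjusted p = 0.522 and 0.483), with 50.1 to 58.3 CPM in the CON group against 86.5 to 113 CPM in the T + E2 group in sum. Red cell transcripts were higher as well, with 5 of 5 past the test and 53.9 to 66.2 CPM against 133 to 420 CPM. The exons of Ackr1 share 361 bases with exons of Cadm3 on the same strand, so its counts are uncertain.

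**Figure D3:**
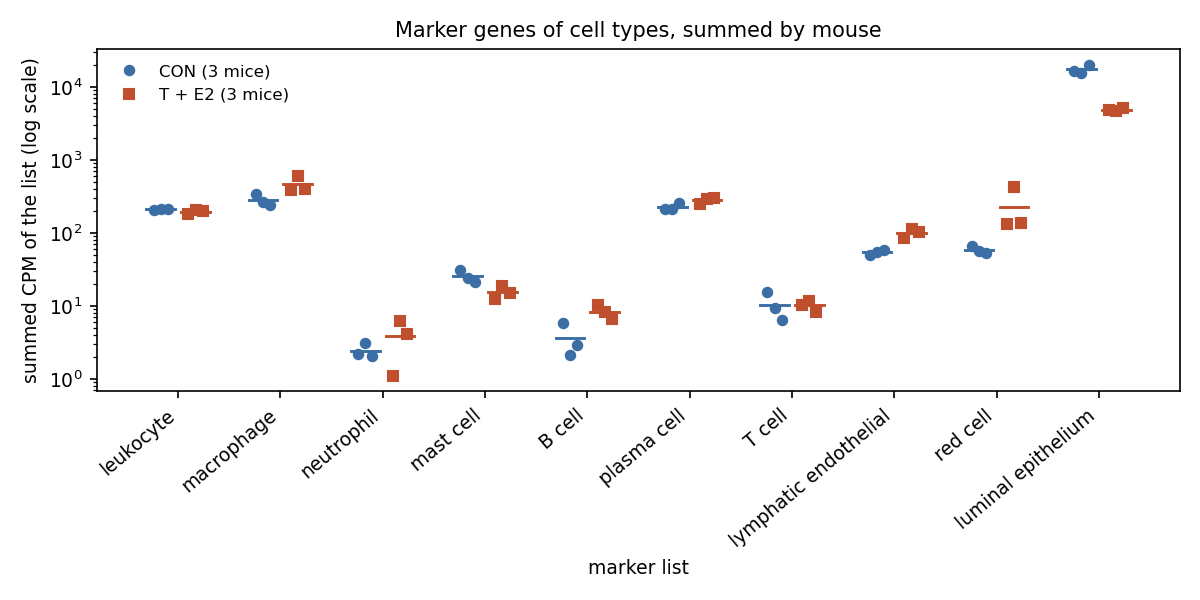
Summed CPM, on a log scale, of the marker genes of 10 cell types, with 1 point per mouse, circles for CON and squares for T + E2, and a line at each group mean. Macrophage, B cell, lymphatic endothelial and red cell sums of the T + E2 mice lie above those of all CON mice. The mast cell and luminal epithelium sums lie below them, and Pbsn makes up most of the CON level of luminal epithelium.

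The remaining members were low throughout. Of 32 rows not tested, 17 had at most 3 counts in every mouse and 9 had 0 counts in all 6 mice, among them Ccl1, Ccl19, Ccl21a and Ccl21b. A count of 0 allows a level of up to 0.181 to 0.202 CPM before TMM scaling. For Ccl19, Ccl21a, Ccl21b and Ccl27b near-identical gene copies (98.9% identity or more over 402 bases or longer) could have taken or lost reads. Ccl22, a ligand of Ccr4, had 18, 7 and 6 counts in CON mice, compared with 5, 6 and 5 in the T + E2 group. Ccr4 had 6, 22 and 1 counts against 1, 1 and 2, so CON replicate 2 held most of them. Ccl3 and Ccl4 had at most 15 and 9 counts, Ccr7 had 6, 3 and 5 counts against 3, 0 and 1, and the neutrophil receptors Cxcr1 and Cxcr2 had at most 2 and 6. None of the genes with counts named in this paragraph passed without the filter on low counts (edgeR adjusted p from 0.12 for Ccr4 to 0.895 for Ccl4). None passed in DESeq2 where it gave an adjusted p (from 0.127 for Ccr4 to 0.94 for Ccl4). Differences in these genes are poorly limited at this depth.

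On the FPKM scale, which corrects for gene length and allows genes to be compared, the order of the ligands differed between the groups. In the CON group Cxcl14 led with 42.8 ± 5.00 FPKM (SD, n = 3), and it lay above the next gene in every mouse. Cx3cl1 (19.5 ± 2.09), Ccl11 (17 ± 2.54) and Cxcl17 (15.4 ± 4.44) followed, and their ranges overlapped, so they are not separated from each other. In the T + E2 group Cxcl17 led with 61.7 ± 9.73 FPKM, ahead of Cxcl14 with 44.8 ± 4.10 FPKM, and the ranges of these did not overlap. Ccl28 (23.8 ± 9.23), Ccl6 (22.0 ± 4.77) and Cxcl13 (19.6 ± 8.85) came next with overlapping ranges. The ratio of Cxcl17 to Cxcl14 was 0.293 to 0.445 in CON mice, compared with 1.06 to 1.62 in the T + E2 group.

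The ligands summed to 136, 155 and 143 FPKM in CON mice and to 206, 292 and 252 FPKM in the T + E2 group. Without Ccl28 the T + E2 sums were 193, 260 and 225 FPKM, which is still above every control. The receptors summed to 30.7, 39.0 and 37.9 FPKM in CON mice and to 22.6, 23.4 and 34.5 FPKM in the T + E2 group, and these ranges overlapped. Ackr3 alone made up 57.7% to 79.8% of the receptor sum in CON mice, compared with 48.8% to 73.1% in the T + E2 group. All other receptors had group means of at most 1.52 FPKM. No test was made on these sums, since they are dominated by few genes.

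**Figure D4:**
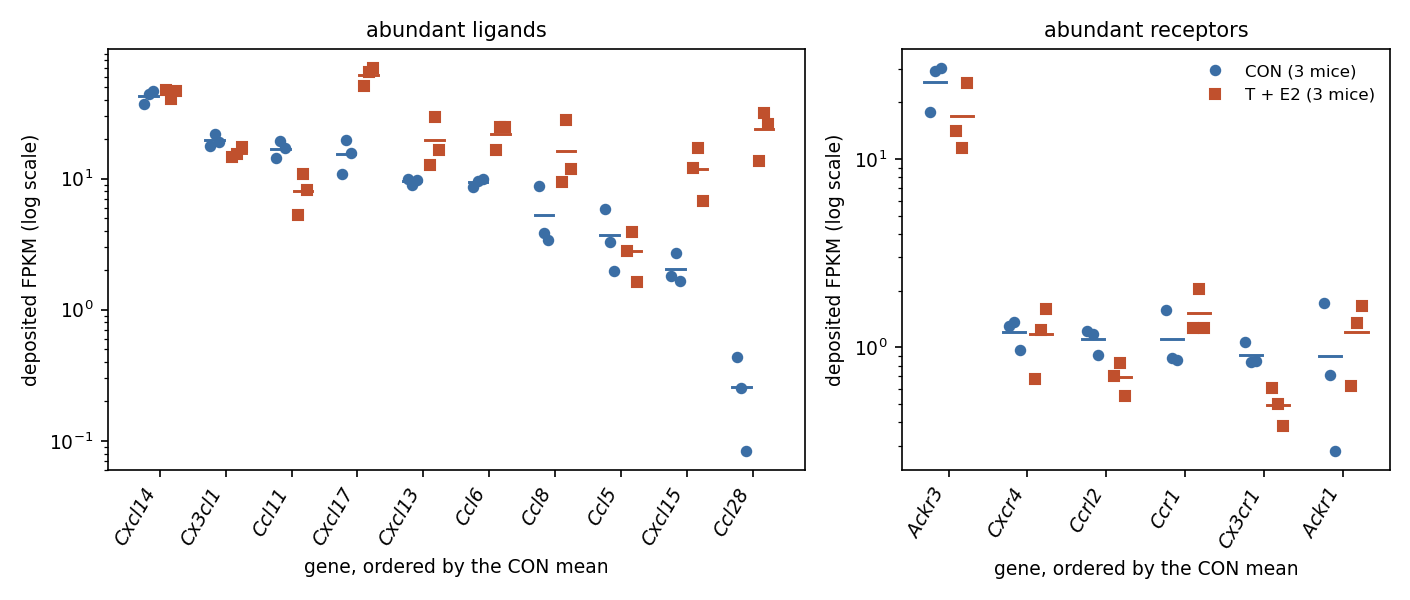
Deposited FPKM on a log scale for abundant ligands and receptors, with 1 point per mouse, circles for CON and squares for T + E2, and a line at each group mean. Cxcl17 and Ccl28 lie far higher in the T + E2 mice, Cxcl14 lies at the same height in both groups, and Ackr3 is above the other receptors shown in every mouse.

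Many chemokine genes stand in clusters, and the genes that passed were not shared across whole clusters. In the cluster of chromosome 11 from 82035571 to 82305690, which holds Ccl2, Ccl7, Ccl11, Ccl12, Ccl8 and Ccl1, only Ccl11 passed, and it fell, while Ccl8 at 52.2 kb from it had a log2 fold change of 1.66 that did not pass. In the cluster from 83525778 to 83664683 of the same chromosome, Ccl9 and Ccl6 rose, Ccl5 did not pass, and Ccl3 and Ccl4 were too low to test. On chromosome 5 from 90759360 to 90905938, Cxcl15 rose, Cxcl1 at 88.2 kb from it had a log2 fold change of -1.54 that did not pass, and Cxcl5, Cxcl3 and Cxcl2 were not tested. Ccl28 on chromosome 13 and Cxcl17 on chromosome 7 lie outside these clusters.

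**Figure D5:**
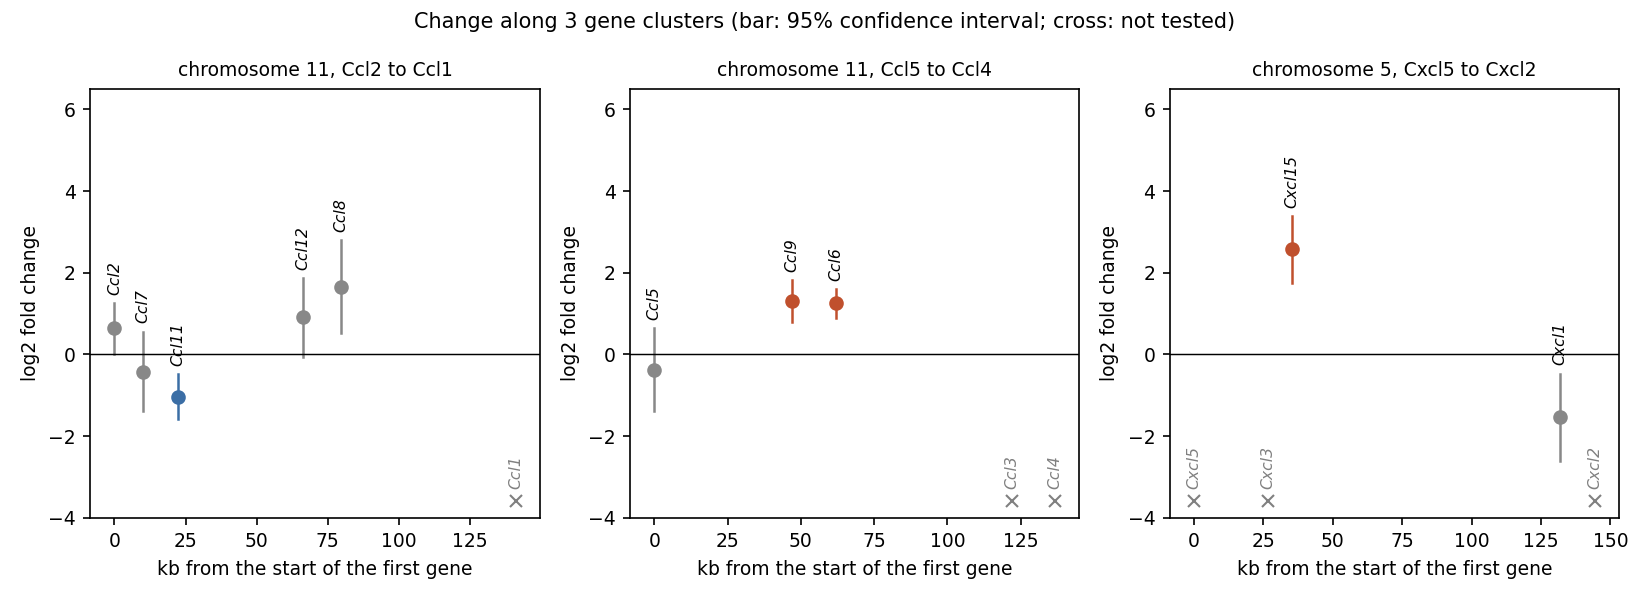
Log2 fold change of T + E2 against CON along 3 gene clusters, against the distance in kb from the start of the first gene, with 95% confidence intervals, red for genes that rose, blue for the gene that fell, grey for those that did not pass and crosses at the bottom for genes not tested. Ccl9 and Ccl6 are side by side at 1.32 and 1.26, and no cluster moves as a whole.

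Some of the genes that act with chemokines changed. Of 25 genes of signalling downstream of the receptors (G proteins, kinases, arrestins and regulators of migration) 1 rose and 2 fell. Pik3cg, the G protein-activated lipid kinase of leukocytes, was at 8.81, 6.51 and 8.17 CPM in CON mice and at 14.8, 18.8 and 12.1 CPM in the T + E2 group (log2 fold change 0.96, edgeR adjusted p = 0.0123). Plcb3 and Elmo1 fell, by 0.38 and 0.33 on the log2 scale (edgeR adjusted p = 0.0371 and 0.0348). Every treated mouse was on one side of every control for these genes. The median log2 fold change of the list was 0.01.

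Of 10 tested genes that cleave or present chemokines, 2 rose and 1 fell. Mmp2, a protease that cleaves Cxcl12, was at 43.5, 44.2 and 44.3 CPM in CON mice and at 29.1, 24.4 and 28.8 CPM in the T + E2 group (log2 fold change -0.68, edgeR adjusted p = 0.00264). Ext1, which builds the heparan sulfate chains that hold chemokines on cell surfaces, rose by 0.53 and Adam17, which sheds Cx3cl1, rose by 0.34 (log2 fold changes, edgeR adjusted p = 0.00447 and 0.0498). Of 15 tested inducers of chemokines (cytokines, their receptors and NF-kB genes) only Il1r1, the interleukin 1 receptor, rose (log2 fold change 0.61, edgeR adjusted p = 0.00894) and none fell. Of 14 tested chemoattractants and receptors outside the symbol rule, which include the CXC chemokine Pf4, only Cmklr1, the chemerin receptor, rose, from 13.6, 13.5 and 11.6 CPM to 20.3, 19.5 and 23.2 CPM (log2 fold change 0.70, edgeR adjusted p = 0.00639). Of all tested genes, 10.4% rose and 9.25% fell (19.6% in either direction).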

How the data were processed

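RNA was sequenced from the prostate of 3 CON and 3 T + E2 mice, in paired-end libraries made with a kit that the labels do not describe as keeping strand. The submitters' processing notes name TopHat, Bowtie2 and HTSeq without versions, and the genome build and the strand setting are not given in the sources used here. The authors deposited one table with whole-number counts of reads per gene and with FPKM values, in which each FPKM equals the count divided by gene length and by the total count (largest spread 0.0019%). Of the 67 rows, 53 had the coordinates of GENCODE M21 (GRCm38).

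Counts were tested with edgeR 4.0.16 (TMM scaling, filterByExpr with a minimum count of 10 and a total of 15, quasi-likelihood F-test, T + E2 against CON, no covariate) in R 4.3.3, and p-values were adjusted over 15580 genes. "Rose" and "fell" mean an adjusted p under 0.05, and DEGs also had an absolute log2 fold change over 1. CPM are TMM-scaled. Standard errors and 95% confidence intervals come from the fit. On simulated counts edgeR found 76 of 100 changes of log2 1 and 98 of 100 of log2 2 among 15574 genes, with 14 false calls. The changed genes were drawn only from genes above a cut on the mean count, so recovery at lower counts was not measured. Replicates of a group differed by more than counting noise (chi-square per degree of freedom 16.7 to 36.4). Each sample is 1 mouse by its label, and CPM floors cover counting error only.

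Promoters came from a RefSeq table (GRCm38.p6), which held 46 of the 62 symbols and none for Ccl11 and Cxcl17. They were aligned with Biopython 1.88, and similar transcripts (90% identity over 250 bases) were sought with BLAST 2.17.0. Alternatives were other scalings, no filter, DESeq2 1.42.0, limma 3.58.1 on log2(FPKM + 0.1) and log2(FPKM + 1), the replicate number as a block, each mouse left out in turn and, added after the data were seen, both replicate-2 mice left out. Each member could be named except 1, which is counted in the totals and is not reported here, the other pathway genes named were those with the largest changes that passed, and the members and lists were chosen with earlier results of these data known.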

Additional observations from a re-analysis of the deposited data

How the results depend on the processing

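Of the counts, 6 genes rose, 3 fell and 7 were DEGs. Under RLE and total count scaling, no filter, DESeq2, both limma fits and the replicate block, 5 to 7 rose, 2 to 4 fell and 6 to 9 were DEGs. Leaving out each mouse in turn gave 5 to 7 genes that rose, 0 to 2 that fell and 5 to 8 DEGs. With both replicate-2 mice left out 4 rose, 1 fell and 5 were DEGs. Over all tested genes 3061 passed with all mice, compared with 1929 to 2741 with 1 mouse left out and 1354 without both replicate-2 mice. With the replicate block 5 genes rose, 2 fell and 6 were DEGs, Cxcl13 (adjusted p = 0.0601) and Cx3cr1 (0.0539) were lost, and it changed no other call. The same replicate number did not pair the mice: the deviations of same-numbered mice correlated at -0.052, 0.028 and 0.046. Without both replicate-2 mice the log2 fold change changed sign in genes that did not pass, Ccl24 (0.17), Cxcl10 (0.23), Cxcl16 (0.02), Cxcr3 (-0.23) and Cxcr4 (0.03). Leaving out 1 mouse turned the sign of genes that did not pass, over the ranges -0.03 to 0.29 for Ackr4, -0.36 to 0.19 for Ccl24, -0.08 to 0.22 for Ccl27a, -0.69 to 0.12 for Ccl5, -0.49 to 0.04 for Cxcl10, -0.32 to 0.03 for Cxcl16, -0.07 to 1.10 for Cxcr3 and -0.28 to 0.24 for Cxcr4. The cause was not tested. The limma fits lost Cxcl13 (adjusted p = 0.0628 and 0.0636) and passed Cxcl1 (0.0491 and 0.0305, on the log2(FPKM + pseudocount) scale). Ccl9 was lost only with both replicate-2 mice left out (0.0546). With 3 mice a group and few counts, changes of genes under about 1 CPM are poorly limited.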

Other observations

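Marker genes of other cell types that respond to chemokines were measured in the same libraries. Of 4 mast cell genes 2 fell, Cma1, a mast cell protease, and Kit, the stem cell factor receptor. Kit was at 7.28, 6.44 and 6.60 CPM in the CON group and at 3.11, 3.35 and 3.74 CPM in the T + E2 group (log2 fold change -0.99, edgeR adjusted p = 0.00699), and every treated mouse was below every control. Of 5 endothelial genes Vwf rose (log2 fold change 0.65, edgeR adjusted p = 0.0233), and of 3 basal epithelial genes Trp63 rose (log2 fold change 0.57, edgeR adjusted p = 0.0108). Natural killer cell markers summed to 2.45 to 3.24 CPM in the CON group and to 2.00 to 3.04 CPM in the T + E2 group, and the only tested gene did not pass. Epcam, a surface protein of epithelium, was at 387, 403 and 421 CPM in the CON group and at 893, 982 and 873 CPM in the T + E2 group (log2 fold change 1.18, edgeR adjusted p = 0.000175), so that an epithelial marker rose while the secretory product Pbsn fell by 3.29 on the log2 scale. The part of epithelial content in the rise of Ccl28 and Cxcl17 was not tested.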
